A study of Homo sapiens with 10 samples.

Results

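The genes described here encode the platelet-derived growth factors (PDGFs) and the vascular endothelial growth factors (VEGFs), secreted ligands through which tubular epithelial cells can signal to the fibroblasts, pericytes and capillaries around them. They are PDGFA, PDGFB, PDGFC, PDGFD, VEGFA, VEGFB, VEGFC and PGF (placental growth factor). Members were taken by name, as the rows of the count table whose Ensembl identifier maps to one of these symbols. The rule uses no measured value, but the family was picked for description with earlier results of these data known. All 8 were found among the 61587 rows of the table. Of these 8 genes, 7 reached the minimum of 200 counts over all samples that the test required, and VEGFC, with 22 counts, did not.

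Expression was measured by bulk RNA-seq in RPTEC/TERT1 cells, a human proximal tubular epithelial line immortalised with telomerase. Irradiated samples (n = 5) received 10 Gy of gamma rays from a caesium source, control samples (n = 5) were mock-irradiated, and RNA was taken 7 days later in both groups. Samples of the same replicate number, 1 to 5, were treated as pairs. Both groups come from 1 cultured epithelial line that carries a telomerase transgene. The labels count the name of the line upwards from sample to sample and call the cells primary, whereas the series design names RPTEC/TERT1 throughout. They do not say that the replicates were separate cultures, so the p-values measure the spread between these samples, which may be technical.

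PDGFs act as dimers on the receptor tyrosine kinases PDGFRA and PDGFRB, which are carried mainly by mesenchymal cells such as fibroblasts and pericytes. PDGFA and PDGFB are processed inside the cell, whereas PDGFC and PDGFD are secreted in a latent form that extracellular proteases must cleave. VEGFA signals to endothelial cells through FLT1 and KDR, VEGFB and PGF bind FLT1, and VEGFC acts mainly on FLT4 of lymphatic endothelium. In the kidney, tubular epithelium is a major source of the VEGFA that maintains peritubular capillaries, while PDGF signalling from injured tubules is a known stimulus for interstitial fibroblasts.

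Control samples held 78081911 to 131555873 gene counts and irradiated samples 66269311 to 101594948, the lowest being irradiated replicate 2. The unit of expression is CPM after TMM scaling, which corrects for depth and composition of a library but not for gene length. Of 19006 genes tested with edgeR's quasi-likelihood test, 23.9% were called higher and 22.7% lower in irradiated samples at a Benjamini-Hochberg adjusted p under 0.05 (46.6% in either direction), so that 51.4% of the calls were rises. Scaling by library size only, this share was 38.0%. The CPM of the groups did not overlap for 14.6% of tested genes in the higher direction and for 12.0% in the lower direction (26.7% in either). Of 6 epithelial markers, among them PAX8, EPCAM and KRT8, all were tested, and their summed level was 2761 to 3221 CPM in control and 2888 to 4173 CPM in irradiated samples. KRT19 was called higher (log2 fold change 0.69), CDH1 lower (-0.18), and the other 4 were not called. Of 7 proximal tubule markers, LRP2, SLC34A1 and HNF4A had at most 13 counts in any library, so these defining markers of the mature segment were near 0 in both groups. ANPEP (188 to 463 CPM), GGT1 (7.05 to 14.2 CPM) and CUBN (3.24 to 5.92 CPM) were present and not called, and AQP1 was called lower, from 1.82 to 1.19 CPM (log2 fold change -0.61). The proliferation gene MKI67 stood at 60.4 and 76.7 CPM in control replicates 3 and 1, at 216.7 to 233.9 CPM in the other controls and at 15.3 to 29.6 CPM in irradiated samples. Counts of called ligands, of called pathway genes together and of all called genes were therefore also computed without replicates 1 and 3. Over all genes this gave 3995 higher and 4185 lower, so that 48.8% of these calls were rises. This alternative was chosen after seeing the data, and counts of single lists or of non-overlapping groups were not recomputed in it.

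Among the ligands, irradiated cells had more PDGFC and PDGFB transcript and less VEGFA, VEGFB and PGF transcript than control cells. PDGFC rose 1.37-fold and PDGFB 1.39-fold, VEGFA fell to 0.445 of its control level, PGF to 0.373 and VEGFB to 0.767, and PDGFA and PDGFD did not pass the test. That is 2 of 7 tested ligands called higher, beside 23.9% of all tested genes, and 3 of 7 called lower, beside 22.7%. The groups did not overlap for PDGFC, VEGFA and PGF, 3 of 7 tested, beside 26.7% of all tested genes. PGF, counted among the genes called lower and among those without overlap, passed the filter through its control samples (351 counts, irradiated 100). VEGFC, with 2 control and 20 irradiated counts, was not tested. With n = 7 these shares of the ligands are a count and not a result about the family as a whole. The median log2 fold change of the 7 genes was -0.18, beside -0.0098 over all genes tested. As the RNA is from bulk samples, fewer cells that transcribe a gene and less of its RNA per cell cannot be told apart. Without replicates 1 and 3 the counts were again 2 higher and 3 lower, but PDGFB was no longer among the genes called higher and PDGFA was.

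**Figure D1:**
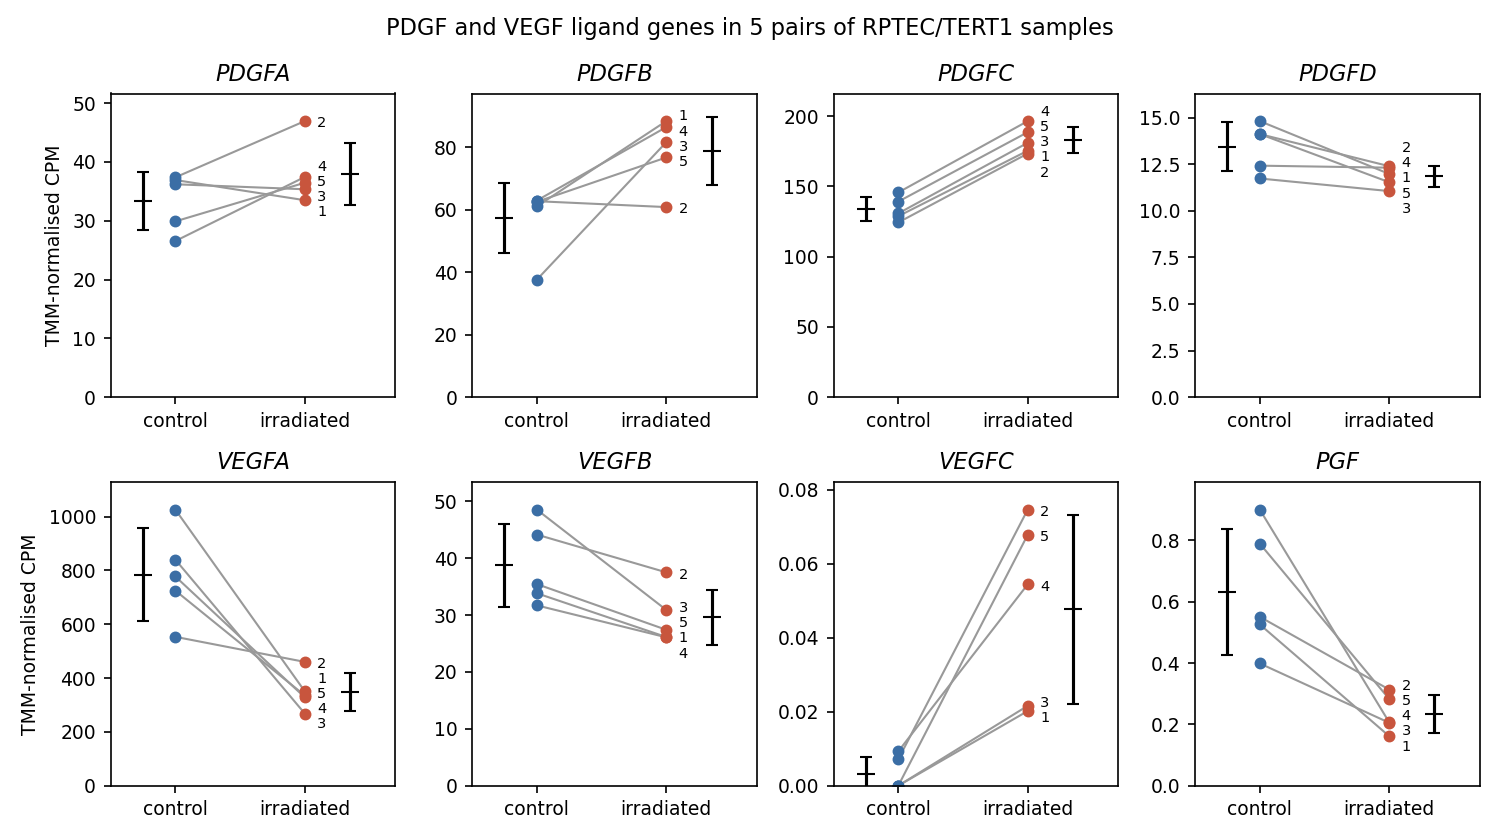
TMM-normalised CPM of the 8 ligand genes in each of the 5 control (blue) and 5 irradiated (red) samples, with grey lines joining samples of the same replicate number, given beside the red points, and bars for the mean ± SD of each group. The PDGFC lines rise almost in parallel, the VEGFA and PGF groups do not overlap, and the VEGFC axis ends below 0.09 CPM.

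PDGFA and PDGFB encode the chains of the classical PDGF dimers, which are activated before secretion. PDGFB (ENSG00000100311, chromosome 22, 39223359 to 39244982, minus strand, GRCh38) stood at 61.1, 62.8, 37.6, 63.0 and 62.6 CPM in control replicates 1 to 5 and at 88.4, 60.9, 81.6, 86.5 and 76.8 CPM in irradiated replicates 1 to 5. Control replicate 3 lay far below the other controls, and irradiated replicate 2 lay just below the other 4 controls, so the groups overlapped. The mean was 57.4 ± 11.1 CPM in control and 78.8 ± 11.0 CPM after irradiation (SD, n = 5 per group), and the log2 fold change was 0.47 (standard error, SE, 0.14, adjusted p = 0.0282 in edgeR). In 4 of 5 pairs the irradiated sample was higher, by 1.12 on the log2 scale in pair 3 and by 0.30 to 0.53 in pairs 1, 4 and 5, while pair 2 differed by -0.04. This call depended on single pairs. Without replicate 1, 4 or 5 the log2 fold change was 0.46, 0.48 and 0.52, with adjusted p = 0.0862, 0.0722 and 0.0553 in edgeR, and without replicates 1 and 3 together it was 0.22 (adjusted p = 0.0889).

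PDGFA (ENSG00000197461, chromosome 7, 497258 to 520296, minus strand) was at 36.9, 37.4, 36.2, 26.6 and 29.9 CPM in control replicates 1 to 5 and at 33.5, 46.9, 35.4, 37.4 and 36.5 CPM in irradiated replicates 1 to 5. The groups overlapped, and the irradiated sample was higher in 3 of 5 pairs. Its log2 fold change of 0.19 had a 95% interval of -0.03 to 0.41 and did not pass the test (adjusted p = 0.138 in edgeR). Without replicate 4 the estimate was 0.11, and without replicates 1 and 3 it was 0.35 with an adjusted p of 0.0021, so that PDGFA counted as higher when the other 3 pairs alone were used. Replicates 1 and 3 are the pairs in which PDGFA was lower after irradiation, and their controls are those with the low MKI67 level. Whether that level had a part in the difference was not tested.

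PDGFC and PDGFD encode the latent PDGFs, which carry a CUB domain that is cleaved off outside the cell. PDGFC (ENSG00000145431, chromosome 4, 156760454 to 156971799, minus strand) was at 128.8, 124.4, 130.8, 145.8 and 139.2 CPM in control replicates 1 to 5. The irradiated replicates 1 to 5 stood at 175.5, 173.5, 181.1, 196.5 and 188.7 CPM. Every irradiated sample lay above every control sample, and the replicates stood in the same order in both groups. Control samples averaged 134 ± 8.58 CPM and irradiated samples 183 ± 9.57 CPM (SD, n = 5 per group). The log2 fold change was 0.45 (SE 0.04, adjusted p = 8.3e-05 in edgeR), with pair differences of 0.43 to 0.48. Its standard error was the smallest of the 7 tested ligands, against 0.14 for PDGFB at nearly the same fold change. Under 14 alternatives the value stayed between 0.38 and 0.46, and the call held in each of them.

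PDGFD (ENSG00000170962, chromosome 11, 103907189 to 104164379, minus strand) was at 14.8, 14.1, 11.7, 12.4 and 14.1 CPM in control replicates 1 to 5 and at 12.0, 12.4, 11.1, 12.3 and 11.5 CPM in irradiated replicates 1 to 5. The irradiated sample was lower in 5 of 5 pairs, by only -0.01 in pair 4, and the groups overlapped. The log2 fold change of -0.18 (95% interval -0.33 to -0.02) had an unadjusted p of 0.030 and missed the threshold after adjustment (adjusted p = 0.0611 in edgeR). Upper-quartile normalisation gave -0.21 (adjusted p = 0.0350) and library size alone -0.25 (adjusted p = 0.0149), so the call depended on the scaling. Of its exon bases, 4.53% lie under exons of DDI1 on the other strand, and whether the counting used strand is not given in the sources used here.

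VEGFA encodes the principal angiogenic factor of the family. VEGFA (ENSG00000112715, chromosome 6, 43770184 to 43786487, plus strand) was at 1026, 553, 840.3, 778 and 725 CPM in control replicates 1 to 5. In irradiated replicates 1 to 5 it was at 351, 460.2, 268, 328 and 335 CPM. The groups did not overlap, and replicate 2 had both the lowest control and the highest irradiated value. The mean fell from 785 ± 172 to 349 ± 69.8 CPM (SD, n = 5 per group), a log2 fold change of -1.17 (SE 0.19, 95% interval -1.60 to -0.74, adjusted p = 0.00171 in edgeR). Control over irradiated, this is 2.25-fold. Differences in the pairs ran from -1.65 in pair 3 to -1.11 in pair 5, with pair 2 apart at -0.27. Control replicates 1 and 3, with the low MKI67 level, had the highest VEGFA values. Without replicates 1 and 3 the log2 fold change was -0.89 (adjusted p = 0.00674 in edgeR), the smallest fall under 14 alternatives. Whether the MKI67 level had a part in this was not tested.

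PGF encodes a VEGF relative that binds FLT1 but not KDR. PGF (ENSG00000119630, chromosome 14, 74941834 to 74955626, minus strand) was close to the limit of detection, with 43, 77, 40, 97 and 94 counts in control replicates 1 to 5 and 16, 21, 19, 19 and 25 counts in irradiated replicates 1 to 5. It passed the filter through the control samples, whose 351 counts exceed the minimum of 200 by themselves, while the irradiated samples held 100 counts together. The levels were 0.399 to 0.901 CPM in control and 0.161 to 0.314 CPM in irradiated samples and did not overlap. The log2 fold change was -1.42 (SE 0.22, 95% interval -1.92 to -0.92, adjusted p = 0.00136 in edgeR), and the irradiated sample was lower in 5 of 5 pairs, by between 0.81 and 2.12 on the log2 scale. With 16 to 97 counts a library, the precision of each value is limited by counting as well as by replicate spread.

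VEGFB encodes a ligand of FLT1 with a weak angiogenic action. VEGFB (ENSG00000173511, chromosome 11, 64234584 to 64239264, plus strand) stood at 33.8, 44.2, 48.6, 31.7 and 35.5 CPM in control replicates 1 to 5 and at 26.1, 37.5, 30.9, 26.1 and 27.4 CPM in irradiated replicates 1 to 5. Irradiated replicate 2 lay above 3 of the controls, so the groups overlapped, although the irradiated sample was lower in 5 of 5 pairs. The mean was 38.7 ± 7.24 CPM in control and 29.6 ± 4.83 CPM after irradiation (SD, n = 5 per group). The log2 fold change was -0.38 (SE 0.06, 95% interval -0.53 to -0.23, adjusted p = 0.00231 in edgeR). All 3 VEGF-family genes called lower stayed lower under each of the 14 alternatives, with a highest adjusted p of 0.0105 for VEGFA, 0.00911 for PGF and 0.0424 for VEGFB.

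VEGFC encodes the main lymphatic growth factor of the family and was at the edge of detection. VEGFC (ENSG00000150630, chromosome 4, 176683538 to 176792922, minus strand) had 0, 1, 0, 1 and 0 counts in control replicates 1 to 5 and 2, 5, 2, 5 and 6 counts in irradiated replicates 1 to 5. A count of 0 allows up to 0.0252 to 0.0367 CPM in the 3 control libraries concerned, on a limit of 3 counts per library, and the irradiated libraries reached 0.0202 to 0.0747 CPM. Scaled to library size after TMM correction, the 20 irradiated counts against 2 control counts gave a ratio of 12.5. Its exact 95% interval of 3.04 to 110.3 covers counting error only. When the filter was lowered to 1 count, VEGFC was called higher (adjusted p = 0.0124 in edgeR). In edgeR this filter also moved the adjusted p of VEGFA from 0.00171 to 3.1e-08 and that of PDGFD from 0.0611 to 0.0773. A call under it is therefore not on the scale of the main test. At 22 counts in all, its level could not be given more precisely.

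**Figure D2:**
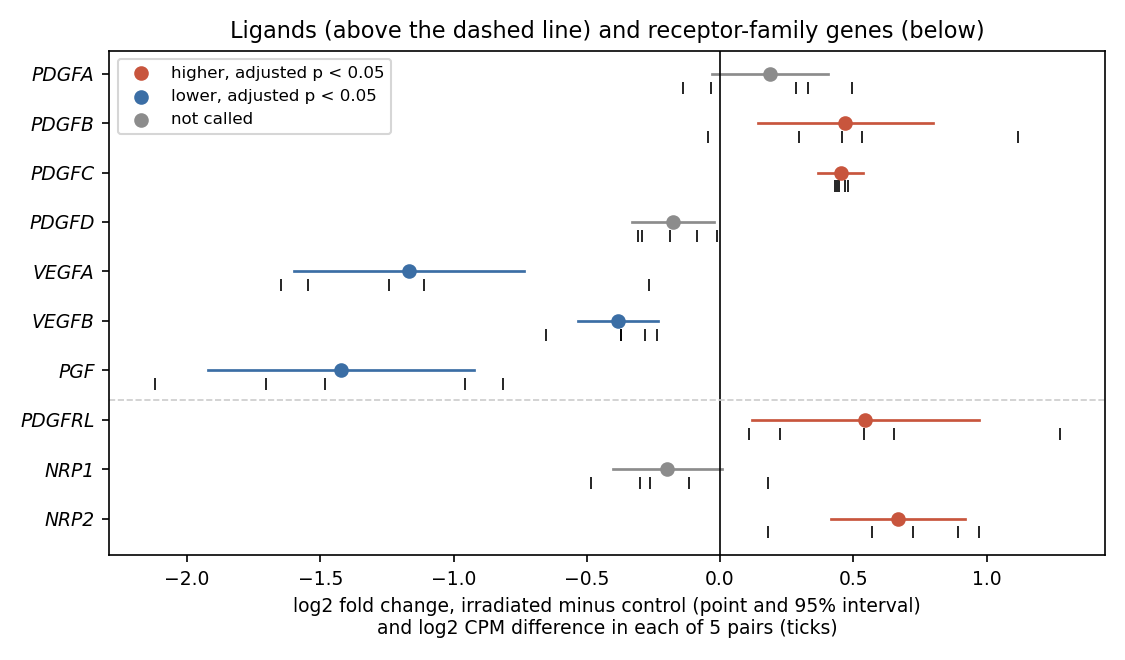
Fitted log2 fold change, irradiated minus control, with its 95% interval for the 7 tested ligands and the 3 tested receptor-family genes, coloured by call, and ticks for the log2 CPM difference in each of the 5 pairs. The ticks of PDGFC fall between 0.43 and 0.48, those of PDGFB between -0.04 and 1.12, and pair 2 of VEGFA stands apart at -0.27.

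RefSeq promoter entries (GRCh38.p14) were matched for 5 of the 8 genes. For the genes called lower that had an entry, VEGFB and PGF, the 250 bases before the start nearest to the GENCODE gene start are printed. Both ligands bind FLT1. Capitals mark the letters ACGTG and GCGTG (the core of the hypoxia response element), GGGCGG (a GC box, read by SP1 and its relatives) and TGAGTCA (an AP-1 element) on either strand, merged where they overlap. The VEGFB window is chr11:64234334-64234583, plus strand, and the PGF window is chr14:74955598-74955847, minus strand.
VEGFB: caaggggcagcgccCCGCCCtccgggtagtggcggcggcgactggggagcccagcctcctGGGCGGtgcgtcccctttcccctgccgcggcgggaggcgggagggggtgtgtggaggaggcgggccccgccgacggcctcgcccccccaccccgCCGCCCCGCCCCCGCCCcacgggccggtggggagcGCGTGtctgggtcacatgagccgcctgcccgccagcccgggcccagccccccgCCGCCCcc
PGF: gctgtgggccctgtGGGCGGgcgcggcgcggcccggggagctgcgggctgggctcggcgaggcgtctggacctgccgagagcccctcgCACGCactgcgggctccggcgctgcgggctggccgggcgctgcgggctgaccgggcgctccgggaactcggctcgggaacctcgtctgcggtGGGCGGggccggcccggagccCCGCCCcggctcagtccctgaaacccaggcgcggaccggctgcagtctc
The VEGFB window holds 6 matches of GGGCGG and 1 of GCGTG, and the PGF window 3 and 1, whereas neither holds ACGTG or TGAGTCA. Of 35116 promoter windows of the same length, 42.6% hold GGGCGG, 32.2% GCGTG, 18.5% ACGTG and 4.2% TGAGTCA. Both windows are rich in G and C, at 82.8% for VEGFB and 80% for PGF, above 98.7% and 96.7% of all windows, where the median is 58%. These matches describe letters only, not bound sites. In the entries nearest the start of PDGFA, PDGFD and VEGFC, GGGCGG was matched 4, 1 and 2 times, ACGTG 0 times in each, and GCGTG 1, 0 and 1 times. G and C made up 68.8%, 69.2% and 74% of these 3 windows. A further PGF entry, 138 bases from the GENCODE start, held 2 matches of GGGCGG and 0 of GCGTG. Its G and C content was 70.8%, above 81.1% of all windows.

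Levels of different genes can be compared only per length, so CPM was divided by the merged length of all annotated exons of each gene, in kilobases. On this scale VEGFA was first in control cells at 54.4 ± 11.9 CPM per kb (SD, n = 5), with a lowest value of 38.3 that lay above every other ligand. PDGFC followed at 22.3 ± 1.43 and VEGFB at 19.7 ± 3.68, and these neighbours did not differ beyond their spread, since VEGFB ran from 16.1 to 24.6 and PDGFC from 20.7 to 24.3. PDGFB came next at 14.4 ± 2.78, PDGFA at 7.28 ± 1.06, PDGFD at 3.15 ± 0.30 and PGF at 0.109 ± 0.035 CPM per kb. In irradiated cells PDGFC led at 30.5 ± 1.60, followed by VEGFA at 24.2 ± 4.84, PDGFB at 19.7 ± 2.76 and VEGFB at 15 ± 2.45 CPM per kb. The ranges of neighbours among these overlapped, from PDGFC (28.9 to 32.8) and VEGFA (18.6 to 31.9) down to PDGFB (15.3 to 22.1) and VEGFB (13.2 to 19.0), so their order was not separated by the spread between samples. PDGFA at 8.27 ± 1.14, PDGFD at 2.78 ± 0.13 and PGF at 0.040 ± 0.011 CPM per kb kept their places.

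The place of VEGFA depended on the length used. Its merged exons span 14431 bases, against 3609 bases for the transcript that GENCODE tags as canonical. On the canonical length VEGFA was at 217 ± 47.7 CPM per kb in control and 96.6 ± 19.3 after irradiation (SD, n = 5 per group), above PDGFC at 29.3 and 40.1, and so first in both groups. VEGFA made up 44.4% ± 6.12 of the summed level of the 8 genes in control and 23.9% ± 3.63 in irradiated cells with merged exons, and 72.0% ± 5.08 and 50.1% ± 4.79 with canonical transcripts. Its share was lower in irradiated cells with either length. Levels by the longest transcript gave the same order of the genes as merged exons.

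**Figure D3:**
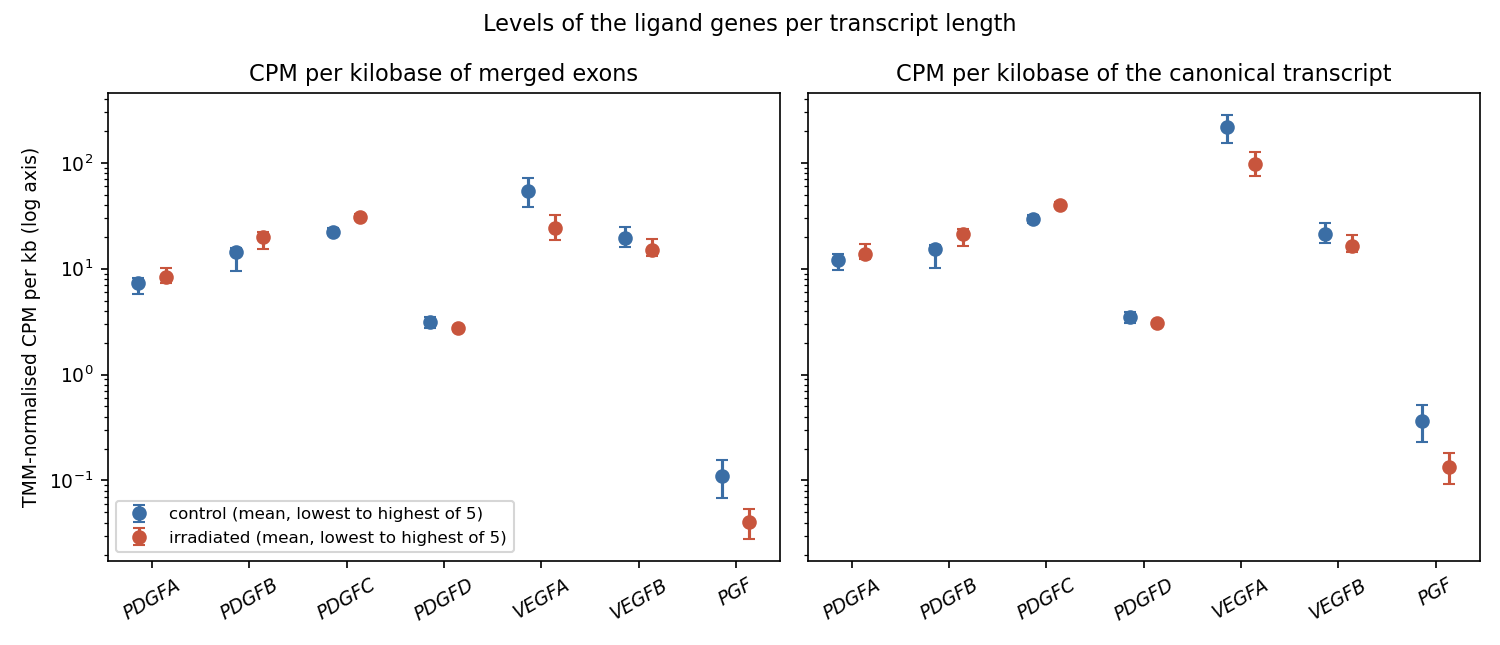
Level per kilobase of 7 ligand genes on a log axis, with points for the mean and bars for the lowest to highest of 5 samples, using merged exons (left) or the canonical transcript (right). VEGFC is left out because it had 0 counts in 3 control samples. PDGFC stands above VEGFA in irradiated samples on the left and below it on the right.

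Ratios of counts between ligands in the same library do not depend on scaling between libraries. PDGFC to PDGFD was 8.70 to 11.7 in control and 14 to 16.4 in irradiated samples, without overlap, and higher in 5 of 5 pairs. VEGFA to VEGFB was 12.5 to 30.3 in control and 8.68 to 13.4 in irradiated samples, lower in 5 of 5 pairs but with overlapping groups. PDGFA to PDGFB was 0.422 to 0.962 and 0.379 to 0.771, and its mean log2 difference of -0.28 became -0.07 without replicate 3, whose control had the low PDGFB value. Both further ratios were chosen after the values were seen. PDGFC to VEGFA was 0.126 to 0.225 in control and 0.377 to 0.675 in irradiated samples, a mean log2 difference of 1.62, with no overlap. VEGFA to PGF was 864 to 2107 and 1187 to 2174, with overlapping groups and a mean log2 difference of 0.25 that ranged from 0.10 without replicate 4 to 0.49 without replicate 3.

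**Figure D4:**
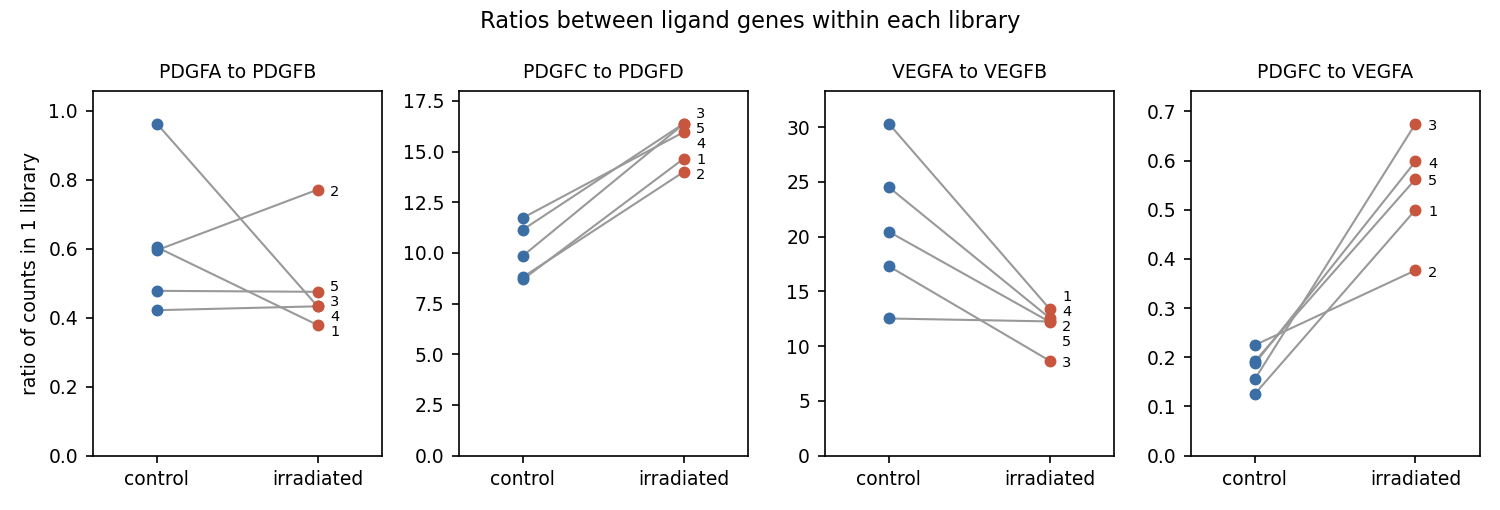
Ratio of the counts of ligand genes within each library for 5 control and 5 irradiated samples, joined by replicate number. PDGFC to PDGFD and PDGFC to VEGFA separate the groups, with lowest irradiated values of 14 and 0.377 above highest control values of 11.7 and 0.225.

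The signalling receptors for these ligands were at or near the limit of detection in both groups. PDGFRA had 5 to 14 counts in a library (103 in all) and PDGFRB 1 to 10 (49 in all). FLT1 had 1 to 5 counts (28 in all), FLT4 0 to 13 (67 in all) and KDR 2 counts in all, 1 each in control replicates 2 and 3. In the irradiated samples together KDR had 0 counts, which allows up to 0.00683 CPM on a limit of 3 counts over the group. None of these 5 receptors reached the minimum of 200 counts. PDGFRA was at 0.0572 to 0.101 CPM in control and 0.109 to 0.179 CPM in irradiated samples, without overlap, at 5 to 14 counts a library.

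Co-receptors were expressed. NRP2, a neuropilin that binds VEGFC and some forms of VEGFA, was at 35.5, 59.8, 79.2, 59.8 and 51.6 CPM in control replicates 1 to 5 and at 69.6, 88.7, 89.7, 98.7 and 96.0 CPM in irradiated replicates 1 to 5. It was higher in 5 of 5 pairs, with overlap through control replicate 3, at a log2 fold change of 0.67 (SE 0.11, adjusted p = 0.00186 in edgeR). NRP1, the neuropilin that binds VEGFA and PGF, was at 239 ± 33.5 CPM in control and 209 ± 34.4 CPM after irradiation (SD, n = 5 per group) and did not pass the test, with a log2 fold change of -0.20 (95% interval -0.40 to 0.01, adjusted p = 0.104). Without replicate 2, in which it was higher after irradiation, it was called lower at -0.28 (adjusted p = 0.0126), as it was with library size alone at -0.27 (adjusted p = 0.0391), and without replicate 1 the estimate was -0.12. PDGFRL, a receptor-like protein without a kinase domain, was called higher at 29 to 85 counts a library (log2 fold change 0.55, SE 0.18, adjusted p = 0.0418). That call was lost under 7 of 14 alternatives, including the removal of replicate 1, 2, 3 or 5 (0.38 to 0.64, adjusted p 0.0572 to 0.105), and 11.5% of its exon bases lie under MTUS1 on the other strand.

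The pathway lists here and below were chosen with earlier results of these data known, so their shares describe the lists only. Of 10 genes for enzymes that process these ligands, 6 were higher and 2 lower, beside 23.9% and 22.7% of all tested genes, with a median log2 fold change of 0.64 beside -0.0098. PLAT, the tissue plasminogen activator, which cleaves latent PDGFC, rose from 8.01 ± 3.77 to 114 ± 33.8 CPM (SD, n = 5 per group), a log2 fold change of 3.89 (SE 0.35, adjusted p = 0.000121 in edgeR). Without replicates 1 and 3 the value for PLAT was 3.26. PLAU, the urokinase that cleaves latent PDGFD, rose from 1013 ± 214 to 2839 ± 548 CPM, a log2 fold change of 1.49 (adjusted p = 2.06e-05), and 31.0% of its exon bases lie under C10orf55 on the other strand. CCBE1 and ADAMTS3, partners in the cleavage of proVEGFC, rose by log2 fold changes of 1.57 and 1.44. Among the proprotein convertases related to furin, PCSK5 rose from 109 to 206 CPM (log2 fold change 0.92) and PCSK7 from 52.6 to 67.6 CPM (0.36), both without overlap of the groups. PCSK6, of the same family, fell from 42.5 ± 6.73 to 17.9 ± 9.72 CPM (log2 fold change -1.37, adjusted p = 0.00053), and CTSD, the lysosomal protease cathepsin D, had a log2 fold change of -0.88 (adjusted p = 0.000607). FURIN, which cleaves PDGFA and PDGFB inside the cell, was at 279 CPM in control and 285 CPM in irradiated samples and was not called (log2 fold change 0.03, adjusted p = 0.573). PDGFC and PLAT were thus both higher in irradiated cells, whereas the ligand cleaved by PLAU, PDGFD, was not called.

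Genes for matrix and surface proteins that bind PDGF or VEGF showed 4 of 7 tested members higher and 0 lower, beside 23.9% and 22.7% of all tested genes, with a median log2 fold change of 0.39. CCN2, connective tissue growth factor, which binds VEGFA, rose from 77.9 ± 30.7 to 169 ± 25.4 CPM (log2 fold change 1.20, adjusted p = 0.000491 in edgeR). Without replicates 1 and 3 the value for CCN2 was 0.89. HSPG2, the basement membrane proteoglycan perlecan, rose from 1544 ± 269.9 to 2602 ± 405 CPM (log2 fold change 0.76, adjusted p = 0.000369). LRP1, an endocytic receptor that is also a co-receptor of PDGFRB, was called higher at 0.43 (adjusted p = 0.00693), a call lost without the replicate block (adjusted p = 0.135). The syndecans SDC1, SDC2 and SDC4 were not called, with log2 fold changes of 0.01, -0.06 and -0.05.

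Of 15 genes for signal transduction downstream of these receptors, 5 were higher (33.3%) and 2 lower (13.3%), beside 23.9% and 22.7% of all tested genes. The median log2 fold change was 0.10. PIK3R1, the regulatory subunit of PI 3-kinase, rose from 35.6 ± 5.40 to 84.2 ± 5.93 CPM (log2 fold change 1.25, adjusted p = 4.84e-05 in edgeR), and RASA1 and NCK1 rose by 0.43 and 0.36 on the log2 scale. MAPK3, which encodes ERK1, had a log2 fold change of -0.70 (adjusted p = 0.000706). The value for CBL, a ubiquitin ligase for activated receptors, was -0.15 (adjusted p = 0.0452), a call lost under 7 of 14 alternatives, including the removal of replicate 1, 2, 3 or 4 (-0.15 to -0.11, adjusted p 0.0949 to 0.138) and of the replicate block (adjusted p = 0.179).

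VEGFA is a target of the hypoxia-inducible factors, so genes of oxygen sensing and other targets were set beside it. Of 8 oxygen-sensing genes 5 were higher and 2 lower (23.9% and 22.7% of all tested genes), and the median log2 fold change was 0.13. EGLN3, a prolyl hydroxylase that is itself induced by low oxygen, rose from 52.0 ± 6.11 to 90.1 ± 14.6 CPM (log2 fold change 0.79, adjusted p = 2.26e-05 in edgeR). EPAS1 and HIF1A, the oxygen-regulated subunits, were called higher at 0.43 and 0.35 (adjusted p = 0.00563 and 0.00298), and the call of HIF1A was lost without the replicate block (adjusted p = 0.145). ARNT, their common partner, was called lower at -0.20 and EGLN1, the main prolyl hydroxylase, at -0.19 (adjusted p = 0.0171 and 0.0289). ARNT lost its call without replicate 1 or 5 (-0.18 and -0.19, adjusted p = 0.0605 and 0.0639) and EGLN1 without replicate 1, 2, 4 or 5 (-0.18 to -0.16, adjusted p 0.0630 to 0.110) or the replicate block (adjusted p = 0.138).

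Of 11 other hypoxia targets tested, 2 were higher (18.2%) and 4 lower (36.4%), beside 23.9% and 22.7% of all tested genes. Their median log2 fold change was -0.11. CA12, a carbonic anhydrase, and ANGPTL4, an angiopoietin-like factor, rose by 2.63 and 2.08 on the log2 scale, from 0.411 and 2.42 CPM. P4HA1, a collagen prolyl hydroxylase, and SLC2A1, the glucose transporter GLUT1, were called lower at -0.38 and -0.32 (adjusted p = 0.00217 and 0.00791). PDK1, a pyruvate dehydrogenase kinase, was called lower at -0.35 (adjusted p = 0.00489), a call lost without the replicate block (adjusted p = 0.120). ADM, the vasodilator peptide adrenomedullin, was called lower at -1.08 (adjusted p = 0.0278 in edgeR), with 1 of 5 pairs higher. Its call was lost without replicate 1 (-0.93, adjusted p = 0.101) or replicate 5 (-1.13, adjusted p = 0.0683), and also without replicates 1 and 3 together (-0.49, adjusted p = 0.0572).

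Among 13 tested genes for transcription factors that act on the ligand promoters, 5 were higher (38.5%) and 4 lower (30.8%), against all-gene shares of 23.9% and 22.7%. The median log2 fold change was -0.06. FOSL1, an AP-1 subunit, rose from 23.5 ± 10.7 to 59.3 ± 10.3 CPM (log2 fold change 1.44, SE 0.30, adjusted p = 0.00562 in edgeR), and without replicates 1 and 3 the value was 0.85. ETS1 and RELA were called higher at 0.56 and 0.21 (adjusted p = 0.0105 and 0.00474). PPARGC1A, a coactivator that can raise VEGFA transcription together with ESRRA, fell from 54.5 ± 15.9 to 21.6 ± 3.27 CPM (log2 fold change -1.30, adjusted p = 0.000436) and was lower in 5 of 5 pairs. ESRRA, its nuclear receptor partner, was called lower at -0.31 (adjusted p = 0.0431), with 133 CPM in control replicate 3 against 70.8 to 83.6 in the other controls. Without replicate 3 its value was -0.17, and its call was lost without replicate 1, 2, 4 or 5 (-0.35 to -0.32, adjusted p 0.0544 to 0.0990) and without the replicate block (adjusted p = 0.101). The value for EGR1, an inducible factor of the PDGFA and PDGFB promoters, was -0.23 (adjusted p = 0.0437), a call lost without replicate 2, 3, 4 or 5 (-0.27 to -0.18, adjusted p 0.0595 to 0.149) and without the replicate block (adjusted p = 0.666).

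Of 8 further angiogenic factors 4 were tested, and 2 were higher and 0 lower (all tested genes, 23.9% and 22.7%). FGF1, an acidic fibroblast growth factor, rose from 0.379 ± 0.189 to 1.91 ± 0.431 CPM (log2 fold change 2.37, adjusted p = 0.000338 in edgeR). FGF2 was called higher at 0.18 (adjusted p = 0.0163), a call lost under 4 of 14 alternatives, including the removal of replicate 5 (adjusted p = 0.0566) and of the replicate block (adjusted p = 0.0699). VEGFD, the remaining VEGF gene, had 3 to 30 counts a library (144 in all) and was not tested. Of 4 angiogenesis inhibitors, COL18A1, whose collagen chain yields endostatin, rose from 1539 ± 143 to 2075 ± 85.9 CPM (log2 fold change 0.43, adjusted p = 0.00125), and THBS1, VASH1 and SERPINF1 were not called. Over all 10 pathway lists, 32 of 75 tested genes were higher (42.7%) and 14 lower (18.7%), where all tested genes gave 23.9% and 22.7%. Their median log2 fold change was 0.13 beside -0.0098 over all genes, and with library size alone 23 were lower. As the lists were chosen with earlier results known, these shares are not a result about the pathway. For several of the called pathway genes, exons of another gene lie on the opposite strand. This holds for 23.4% of exon bases of CTSD (under PRADX), 20.6% of PCSK7 (under TAGLN and another gene) and 18.5% of COL18A1 (under SLC19A1). It also holds for 14.7% of RASA1 (under CCNH), 11.9% of CCN2 (under LINC01013), 11.8% of FGF2 (under NUDT6) and 11.7% of HSPG2 (under LDLRAD2). Without strand such reads cannot be told apart. Of EGLN1 55.8% and of CTSD 27.3% of exon bases are shared with other genes on the same strand.

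**Figure D5:**
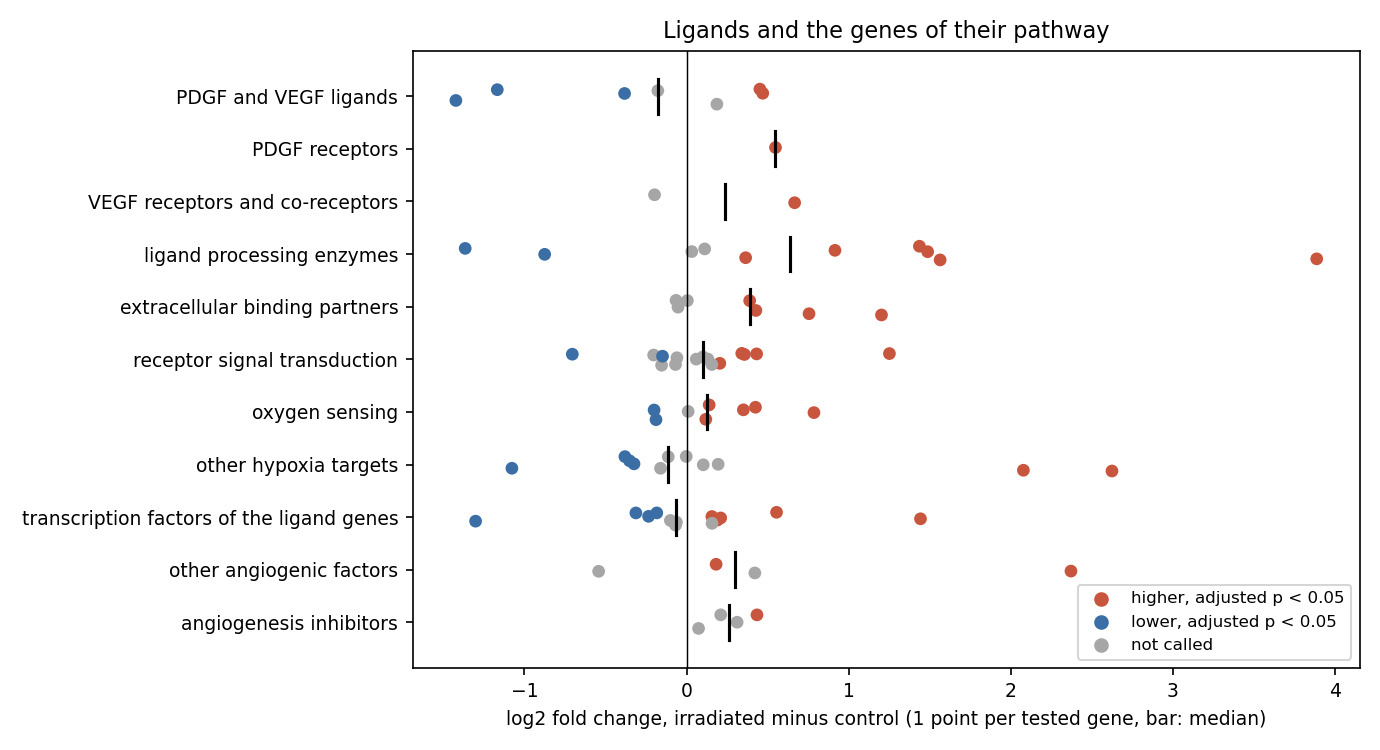
Log2 fold change, irradiated minus control, of each tested gene in the ligand group and in 10 lists of their pathway, coloured by call, with a bar at the median of each list. Ligand processing enzymes have the list median farthest above 0 among lists of more than 1 tested gene, at 0.64, and the ligands themselves lie at -0.18.

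Markers of other cell types were followed because endothelial and stromal cells carry the receptors. The summed level of 8 endothelial markers was 1.41 to 2.56 CPM in control and 4.23 to 6.14 CPM in irradiated samples. PECAM1 and CDH5 were called higher among the 3 tested, beside 23.9% of all tested genes. CDH5 stood at 0.596 CPM in control and 3.31 CPM in irradiated samples, while VWF was not called (log2 fold change -0.02). CLDN5, EMCN and ERG had at most 8 counts in any library, TEK at most 7, and TIE1 had 50 counts in control and 7 in irradiated samples, lower in 5 of 5 pairs. For 8 stromal markers the sums were 20.4 to 27.9 and 34.0 to 45.9 CPM, with COL1A1 the largest part, whereas COL3A1, LUM and COL1A2 had at most 7 counts. All 4 stromal markers tested were called, beside 46.6% of all tested genes in either direction. COL1A1, DCN and ACTA2 were higher (log2 fold changes 0.78, 2.36 and 0.41) and RGS5, a pericyte marker, lower (-0.83). The all-gene shares are 23.9% higher and 22.7% lower. DCN passed the filter through its irradiated samples (693 counts, control 188) and RGS5 through its control samples (357 counts, irradiated 168). Leukocyte markers summed to 0.554 to 0.844 and 0.882 to 1.34 CPM, with CD14 called higher and PTPRC not called. CD14 passed the filter through its irradiated samples (247 counts, control 151). The summed marker levels moved with irradiation and their part in the ligand differences was not tested.

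For each tested ligand the 2 genes with the most similar profile, by Pearson correlation of log2 CPM over the 10 samples, were listed as a description. As the samples fall into 2 groups, any gene that separates these groups in the same way scores highly. PDGFC was most like TMEM30A (r = 0.991) and HPGD (r = 0.989). VEGFA was most like PPP2R3A (r = 0.989) and C4A (r = 0.988), a gene with a near-identical copy, C4B. VEGFB was followed by SLC6A13 (r = 0.981) and TMEM213 (r = 0.980), and PGF by SKIC8 (r = 0.976) and ZNF385D (r = 0.974). The genes nearest to PDGFB were PDLIM2 (r = 0.982) and the pseudogene KRT223P (r = 0.981), those nearest to PDGFA were PREX2 (r = 0.95) and TBC1D13 (r = 0.947), and those nearest to PDGFD were ZBTB44-DT (r = 0.962) and PBDC1 (r = 0.938).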

How the data were processed

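Counts of bulk RNA-seq reads per gene were analysed for 5 control and 5 irradiated samples of RPTEC/TERT1 cells, grouped by title. The authors trimmed reads with Trim-Galore (Cutadapt 2.8), aligned them to GRCh38 with STAR 2.7.9a and deposited whole-number counts per gene, neither normalised nor filtered. The annotation release and the strand setting are not given in the sources used here. Of 61587 identifiers, 61415 matched a symbol. Coordinates and exon lengths came from the GENCODE annotation of GRCh38.

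Genes whose counts summed to 200 or more across the 10 samples, the minimum the study states, were normalised by TMM and tested in R 4.3.3 with edgeR 4.0.16 (glmQLFit, glmQLFTest), with replicate number as a block, as in the study's model. P-values were adjusted by Benjamini-Hochberg over all 19006 genes, with a threshold of 0.05. Standard errors were taken from the fold change on the log2 scale over the root of F. Numbers were taken to pair the samples, as in the study's model. Deviations from group means correlated at 0.22 to 0.51 for the same number and at -0.35 to 0.32 for different numbers. These ranges overlap through replicate 2, at 0.22, so for that pair the correlations do not decide the pairing. The fit was tested on simulated data. Depth was 66269311 to 131555873 counts per sample, so precision is set by replicate spread except for genes of few counts.

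The members and the pathway lists were chosen with earlier results of these data known. Named genes are the members, all receptors and co-receptors, up to 3 largest rises and falls among the called genes of each other list, and the 2 genes most correlated with each tested member. FURIN, PCSK5, PCSK7, ADAMTS3, SLC2A1, the syndecans, the inhibitors not called, VEGFD, MKI67 and the markers were named after their values were seen. Motifs were searched on both strands. Alternatives were DESeq2 1.42.0, limma-voom (limma 3.58.1), DESeq2 size factors, upper-quartile and library-size scaling, other filters, no replicate block, each replicate left out, and, added after seeing the data, replicates 1 and 3 left out and canonical transcript lengths. The ratio of VEGFC to VEGFA was not computed because VEGFC had 0 counts in 3 control samples. Figures were drawn with matplotlib 3.10.9.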

Additional observations from a re-analysis of the deposited data

Results flagged for a closer look

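Among 84 groups of 5 samples, the control and irradiated groups of 42 tested ligand and pathway genes, 6 held a sample whose gap to its nearest neighbour exceeded 0.71 of the whole range, Dixon's 95% limit, where chance gives 4.2. PDGFB was at 37.6 CPM in control replicate 3, with the other controls at 61.1 to 63.0. The same sample was high for PLAU at 1391 CPM (others 876 to 963), for EPAS1 at 160.2 CPM (others 94.7 to 107) and for ESRRA at 133 CPM (others 70.8 to 83.6). Irradiated replicate 2 was low for CCBE1 at 9.62 CPM (others 18.8 to 21.5) and high for PCSK6 at 34.9 CPM (others 10.3 to 16.2). The cause of these values was not tested.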

How the results depend on the processing

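Across 14 alternatives for each of the 7 tested ligands, 90 of 98 values kept their direction and their side of the threshold, 5 lost the call, 3 gained one and 0 changed direction. Among the other named pathway genes 446 of 490 kept both, 41 lost the call, 3 gained one and 0 reversed. PDGFB lost its call with library size only (0.39, adjusted p = 0.0501 in edgeR) and without replicates 1 and 3 (0.22), and ran from 0.32 to 0.61 with 1 replicate left out. PDGFA gained one without replicates 1 and 3 (0.35). PDGFD gained one with upper-quartile normalisation (-0.21) and library size only (-0.25). The ligands called higher numbered 1 with library size only and 1 to 2 with 1 replicate left out, and 3 with a minimum of 1 count, which adds VEGFC. Pathway genes called lower, 14 in the main test, numbered 23 with library size only and 9 to 12 with 1 replicate left out. Without the replicate block the pathway genes called lower numbered 8 and those called higher 25, the ligands were again 2 higher and 3 lower, and over all genes 3640 were higher and 3366 lower, beside 4550 and 4307 with the block. With the longest or the canonical transcript in place of merged exons, mean levels per kilobase moved by more than 1 SD of the samples, in at least 1 of these settings, for PDGFA, PDGFC, PDGFD, VEGFA and PGF, and by less for PDGFB and VEGFB. Except where the alternative leaves fewer samples or changes the scaling by construction, the cause was not tested. Values of PGF, VEGFC, PDGFRL and the receptors are limited by counts.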
